A study of Mus musculus with 6 samples.

Results

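Fragments of the mitochondrial tRNAs for tryptophan, alanine, asparagine, cysteine and tyrosine were described in small RNA libraries of mouse primary smooth muscle cells from the pulmonary artery, where they form the contractile layer of the vessel wall. A sequence was taken when every tRNA name that the deposited table gives it is one of these 5 tRNAs. The rule used no count, and it took 954 of 38798 distinct sequences, which held 32034 of 8966706 counts (0.357%). The tyrosine tRNA (mt_tRNA-Tyr-GTA) gave 136 sequences with 11000 counts and the alanine tRNA (mt_tRNA-Ala-TGC) 200 with 7460. The asparagine tRNA (mt_tRNA-Asn-GTT) gave 294 with 6920, the tryptophan tRNA (mt_tRNA-Trp-TCA) 97 with 4676 and the cysteine tRNA (mt_tRNA-Cys-GCA) 227 with 1978. They are called Tyr, Ala, Asn, Trp and Cys from here on. The sequences were 15 to 45 nt long with a median of 24 nt, and 254 of them had a single count in all libraries together.

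Mitochondrial DNA is transcribed from both strands into long precursors, and the tRNAs in them mark where these are cut. RNase P cuts at the 5′ end of each tRNA, RNase Z (ELAC2) cuts at its 3′ end, and a nucleotidyltransferase then adds the bases CCA, which the DNA does not encode and to which the amino acid is later attached. The 5 genes form a cluster between the genes of the NADH dehydrogenase subunit Nd2 and the cytochrome oxidase subunit Co1. It is known as WANCY after the letter codes of its amino acids and holds the origin from which the light strand is replicated. Each tRNA carries its amino acid to the mitochondrial ribosome, where its anticodon pairs with the codon. Small RNAs cut from tRNAs are called tRNA-derived small RNAs (tsRNAs).

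All cells were wild type. The hypoxia group was kept at 3% oxygen for 24 hours, the normoxia group was grown under standard conditions, and each group held 3 libraries, numbered 1 to 3 and described as biological replicates. The RNA was prepared by Pandora-seq: enzymes strip RNA modifications that would otherwise stop adapter ligation or reverse transcription. The table holds tRNA fragments alone, so that no marker of smooth muscle or of any other cell could be read. In such bulk samples fewer mitochondrial transcripts per cell and another mix of cells cannot be told apart.

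The libraries numbered 1 stood apart in both groups. They held 510519 counts in hypoxia and 330787 in normoxia, against 1629726 to 2563749 in the others. Mitochondrial sequences took 15.3% and 14.4% of their counts, against 6.0% to 7.33% elsewhere, and 5′ fragments of any tRNA took 36.6% and 34.6%, against 53.0% to 58.6%. Levels are therefore given by library, and the main comparisons with these libraries and without them. The part of depth or of library preparation in the results below was not tested.

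The genes lie on the mitochondrial chromosome of GRCm38, and all 5 are annotated as mitochondrial tRNA genes in GENCODE M21. Tryptophan is on the plus strand and the others on the minus strand. On the chromosome 1 base separates the tryptophan gene from that of alanine, 2 bases lie between alanine and asparagine, 32 between asparagine and cysteine, and 2 between cysteine and tyrosine. The encoded tRNAs are shown because every fragment position below is counted along them, from 1 at the 5′ end, and capitals mark the anticodon.
mt-Tw (Trp), 67 nt, chrM:4950-5016, plus strand: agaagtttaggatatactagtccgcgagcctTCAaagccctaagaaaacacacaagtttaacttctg
mt-Ta (Ala), 69 nt, chrM:5018-5086, minus strand: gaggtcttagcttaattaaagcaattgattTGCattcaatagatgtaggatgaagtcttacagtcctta
mt-Tn (Asn), 71 nt, chrM:5089-5159, minus strand: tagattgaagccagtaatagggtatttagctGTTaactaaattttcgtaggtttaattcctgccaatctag
mt-Tc (Cys), 66 nt, chrM:5192-5257, minus strand: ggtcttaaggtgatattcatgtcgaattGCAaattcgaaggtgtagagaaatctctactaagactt
mt-Ty (Tyr), 67 nt, chrM:5260-5326, minus strand: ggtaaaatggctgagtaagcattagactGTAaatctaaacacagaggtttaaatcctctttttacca

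All 954 sequences matched their tRNA followed by CCA exactly, at 1 position each, and none was shared with another tRNA. The next sequences are the most abundant fragment of the main class of each tRNA, and for tryptophan of its 2 main ends. Capitals mark anticodon bases or bases of the added tail.
Tyr 1 to 24: ggtaaaatggctgagtaagcatta
Trp 1 to 18: agaagtttaggatatact
Trp 54 to 68: aagtttaacttctgC
Ala 38 to 56: aatagatgtaggatgaagt
Asn 39 to 54: aaattttcgtaggttt
Cys 19 to 36: atgtcgaattGCAaattc

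Before scaling, Trp, Ala, Asn and Cys fragments were highest in the libraries numbered 1 of both groups, and Tyr fragments were not. Levels are counts per 1000000 counts of the library (CPM). Trp fragments stood at 2488, 364 and 276 CPM in hypoxia libraries 1, 2 and 3 and at 2415, 281 and 355 CPM in the normoxia libraries. The libraries numbered 1 were the highest in both groups, and the groups overlapped. Cys fragments showed the same order at a lower level, with 460, 193 and 187 CPM in hypoxia and 481, 199 and 200 CPM in normoxia. Ala fragments had 1283, 710 and 792 CPM in hypoxia and 1318, 834 and 824 CPM in normoxia. Asn fragments had 1211, 725 and 686 CPM in hypoxia and 1070 CPM, 752 and 765 CPM in normoxia. For Ala and Asn, too, the libraries numbered 1 were the highest. In CPM, Tyr differed from the other 4 in its order. It had 1165, 963 and 802 CPM in hypoxia, but 807, 1429 and 1916 CPM in normoxia, where library 1 was the lowest. These orders depend on the scaling. On log2 levels scaled as in the tests below, Ala and Asn went with Tyr over the 6 libraries (Pearson's r = 0.777 and 0.956). They went against Trp (r = -0.821 and -0.914), while Cys went with Trp (r = 0.938). These correlations describe 6 libraries and were not tested.

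Divided by the length of the encoded tRNA, the mean levels over the 6 libraries were 17.6 CPM per base for Tyr, 15.4 for Trp, 13.9 for Ala, 12.2 for Asn and 4.34 for Cys. Among the 22 mitochondrial tRNAs these are ranks 11 to 14 and, for Cys, rank 20. The level of mitochondrial tRNA-Val, rank 1, was 506 CPM per base. In normoxia, Tyr had 20.7 ± 8.3 CPM per base, Trp 15.2 ± 18.1, Ala 14.4 ± 4.09 and Asn 12.1 ± 2.54 (SD, n = 3). This spread lies between libraries and includes the offset of library 1, and whether the 4 differ was not tested. Within libraries 2 and 3 of both groups the order was Tyr, Ala, Asn and Trp each time. Cys was the lowest of the 5 in each library, with 2.83 to 7.28 CPM per base. The order of the others depended on the library: Trp led in both libraries numbered 1, with 37.1 and 36.1 CPM per base, and stood between Asn and Cys elsewhere, with 4.12 to 5.43.

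**Figure D1:**
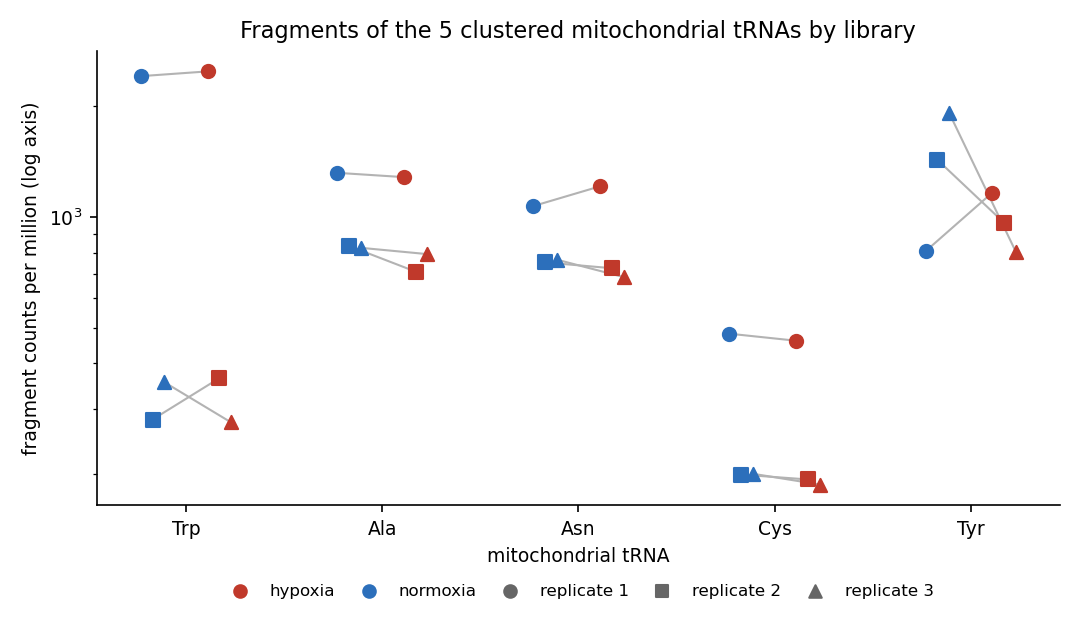
Fragment level in CPM (log axis) of each of the 5 mitochondrial tRNAs in normoxia (blue) and hypoxia (red), with a symbol for each replicate number and a line joining the libraries of the same number. Trp is at 2415 and 2488 CPM in the libraries numbered 1 and at 276 to 364 CPM in the others. Tyr is lower in hypoxia on the lines of replicates 2 and 3 and higher on that of replicate 1.

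The part of the tRNA that was covered, relative to the anticodon, was not the same for all 5. The leading fragments of Ala and Asn, 38 to 56 and 39 to 54, cover similar positions. Ala counts lay wholly 3′ of the anticodon in 85.6% to 95.9% of cases over the 6 libraries. Tyr counts lay wholly 5′ of it in 73.8% to 84.4%. Cys counts spanned the whole anticodon in 60.2% to 69.1%. Asn took a middle place, with 35.6% to 42.7% spanning it and 47.4% to 56.3% on its 3′ side. These ranges hold all 6 libraries, so that these 4 tRNAs kept their place relative to the anticodon in the libraries numbered 1 as well. The exact ends could still differ there, as described for Tyr below.

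Trp did not. Its counts lay 3′ of the anticodon in 87.6% and 92.0% of cases in hypoxia libraries 2 and 3 and in 70.9% and 82.7% in the normoxia ones, but in 31.9% and 18.5% in the libraries numbered 1 of hypoxia and normoxia. There, 66.9% and 80.2% lay on the 5′ side. Fragments across the Trp anticodon were few everywhere, at 0.211% to 1.93%. A share of a library's counts rests on 159 to 496 counts for Cys, 267 to 3170 for Tyr, 354 to 1858 for Asn, 436 to 1849 for Ala and 473 to 1270 for Trp. The 95% Wilson interval of such a share reaches at most 7.68 percentage points to either side for Cys, 5.95 for Tyr, 5.18 for Asn, 4.67 for Ala and 4.49 for Trp. The reads carry no molecular identifiers, so the intervals cover counting error only.

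**Figure D2:**
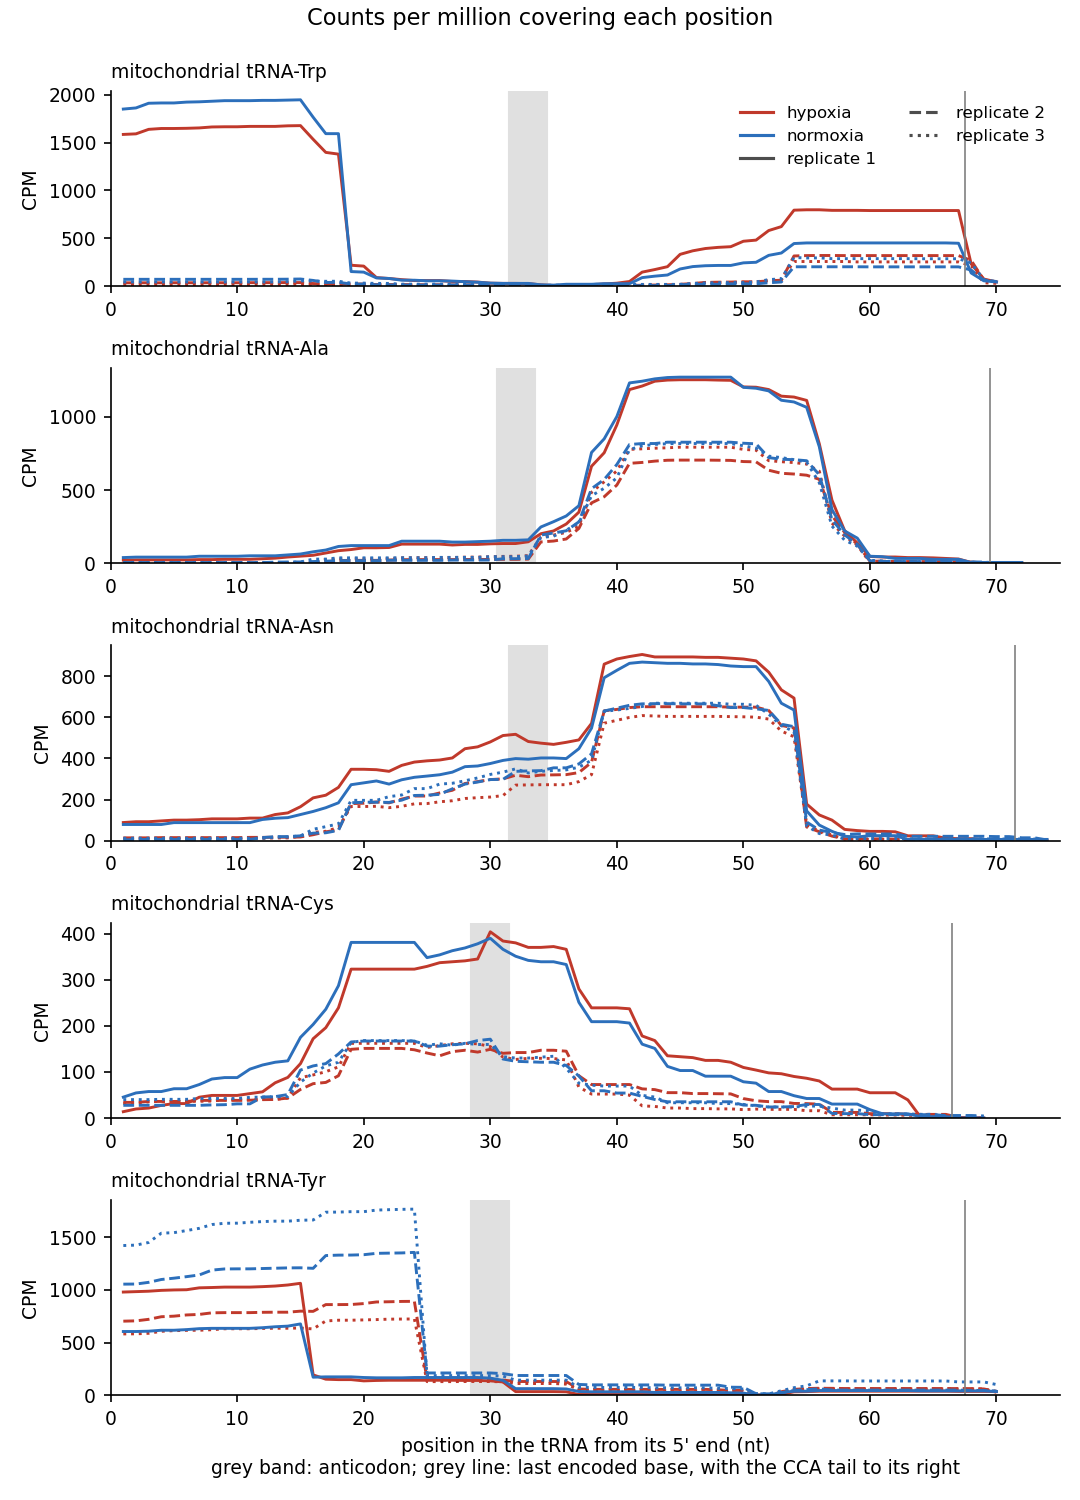
Level in CPM that covers each position of the 5 tRNAs (position in nt from the 5′ end), 1 line per library, hypoxia in red and normoxia in blue, with solid, dashed and dotted lines for replicates 1, 2 and 3. The Ala lines are low at the anticodon (grey band), rise from position 34 to 41, and fall between 55 and 59. Asn has its most frequent start at 39 and its most frequent end at 54 in every library, while the Tyr lines end at 24 in replicates 2 and 3 and at 15 in replicate 1.

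The table sorts fragments into 5′ ends, which start at base 1, 3′ ends, which stop at the last encoded base, CCA ends, which carry the whole added tail, and internal fragments, which include those with a partial tail. For all 954 sequences the class matched the position found. Ala fragments were internal for 98.9% of counts and Asn fragments for 97.4%. Cys fragments were internal for 83.5% and 5′ ends for 14.6%. Tyr was the only one of the 5 with a 5′ majority in every library, at 72.5% to 84.0%, with 74.1% over all counts, and its internal fragments took 21.9%. Trp was the most mixed, with 37.6% of counts in 5′ ends, 38.7% internal, 15.7% in 3′ ends and 8.08% in CCA ends. Its 5′ share was 63.7% and 76.6% in the libraries numbered 1, 9.23% and 5.5% in hypoxia libraries 2 and 3, and 24.9% and 11.9% in normoxia libraries 2 and 3.

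**Figure D3:**
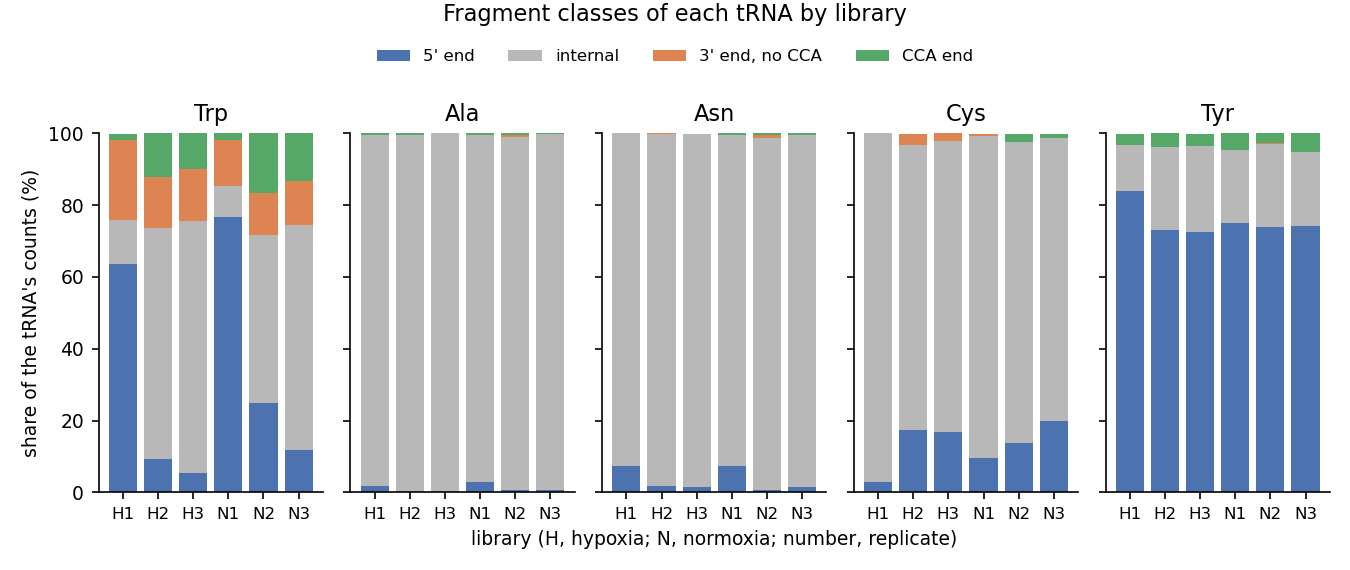
Share of each tRNA's counts (%) by fragment class, as stacked bars for the 3 hypoxia (H) and 3 normoxia (N) libraries. Ala and Asn bars are almost wholly internal, Tyr bars hold 72.5% to 84.0% of 5′ ends, and the Trp bars of H1 and N1 are mostly 5′ ends.

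Trp fragments came from the ends of the tRNA. The 5′ fragment of positions 1 to 18 was the most abundant by mean CPM, but it had 1113 and 1388 CPM in the libraries numbered 1 of hypoxia and normoxia and only 5.46, 1.75, 19.4 and 22.7 CPM in hypoxia 2 and 3 and normoxia 2 and 3. The libraries numbered 1 were far above the others in both groups. Within the pairs 1, 2 and 3, hypoxia had 0.802, 0.282 and 0.0771 times the level of normoxia, and with the replicate block the log2 change was -1.49 (SE 0.44, unadjusted p = 0.00238, edgeR's adjusted p = 0.289), against -0.31 (SE 2.09, adjusted p = 1.0) with the group alone. In the other 4 libraries the counts came mainly from fragments that start at base 54, which took 56.7% to 70.1% of Trp counts there, against 6.93% and 4.13% in the libraries numbered 1. The 15-nt fragment 54 to 68, which carries the first C of the tail, had 104, 198 and 158 CPM in hypoxia and 54.4, 101 and 164 CPM in normoxia. A fragment from base 54 to the last encoded base would be shorter than the shortest sequence in the table, so the start at 54 is seen only where tail bases are present. The fragment with the whole tail, 54 to 70, had 39.2, 38.6 and 23.9 CPM in hypoxia and 33.3, 44.2 and 40.5 CPM in normoxia.
Trp 54 to 70: aagtttaacttctgCCA
Trp 45 to 67: aaaacacacaagtttaacttctg
The second of these was the most abundant 3′ end without tail, with 129, 5.07 and 3.5 CPM in hypoxia and 63.5, 8.57 and 0.614 CPM in normoxia, again highest in the libraries numbered 1.

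Ala fragments formed a ladder on the 3′ side of the anticodon. Starts at positions 37 to 41 held 66.8% to 73.0% of Ala counts and ends at 55 to 59 held 77.5% to 84.8%, with the libraries numbered 1 inside or near the range of the others. The leading fragment, 38 to 56, had 99.9, 69.4 and 114 CPM in hypoxia and 118, 106 and 102 CPM in normoxia. The groups overlapped, and it made 11.6% of all Ala counts. The exact end was less steady than the stretch. Fragments that stop at 55 took 23.4% and 20.6% of Ala counts in the libraries numbered 1, 4.4% and 6.26% in hypoxia 2 and 3, and 11.7% and 17.2% in normoxia 2 and 3. In CPM, ends at 55 in hypoxia were 1.1, 0.319 and 0.35 times those in the normoxia library of the same number. This position was picked after its values were seen.

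Asn fragments had the most frequent end of the 3 tRNAs with mainly internal fragments, in each library. Fragments that stop at base 54 took 42.7%, 66.7% and 62.7% of Asn counts in hypoxia and 45.8%, 62.5% and 59.9% in normoxia, lower in the libraries numbered 1 of both groups. The main start was base 39, with 29.7% to 42.1%, and base 19 came next, with 7.61% to 17.9%. The 16-nt fragment 39 to 54 alone held 33.5% of Asn counts. It had 351, 257 and 275 CPM in hypoxia and 278, 228 and 251 CPM in normoxia, and hypoxia was higher in each pair of the same number, at 1.26, 1.13 and 1.1 times, though the groups overlapped. Asn 5′ ends were rare outside the libraries numbered 1, where they took 7.28% and 7.34% of counts against 0.54% to 1.88%. The most abundant of them, 1 to 21, had 9.79, 7.02 and 7.0 CPM in hypoxia and 18.1, 0.451 and 1.84 CPM in normoxia.
Asn 1 to 21: tagattgaagccagtaatagg

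Cys fragments were the fewest. Their mean length was 22.7 to 23.9 nt by library, and 17.4% to 24.5% of counts were 30 nt or more. Starts at 15 to 19 took 51.1% to 65.0% of Cys counts. The leading fragment, 19 to 36, holds the whole anticodon and had 56.8, 45.6 and 37.3 CPM in hypoxia and 57.4, 10.4 and 22.7 CPM in normoxia. The normoxia libraries 2 and 3 were the lowest, and normoxia 1 was the highest of all. The 5′ fragment 1 to 24 was listed with no count in hypoxia library 1, had 6.24 and 8.17 CPM in hypoxia 2 and 3, and 21.2, 11.7 and 14.1 CPM in normoxia, so the groups did not overlap. It rests on 0, 16 and 14 counts against 7, 26 and 23.
Cys 1 to 24: ggtcttaaggtgatattcatgtcg
Among Cys 3′ ends, the most abundant, 27 to 66, had 9 counts in hypoxia 2, 1 in hypoxia 3 and none elsewhere.

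Tyr fragments were dominated by a 5′ piece whose end differed by replicate number. The 24-nt fragment 1 to 24 made 65.9% of all Tyr counts, with 683 and 556 CPM in hypoxia 2 and 3 and 1022 and 1399 CPM in normoxia 2 and 3. It had no count in either library numbered 1. Fragments from any start that stop at base 24 took 77.1% and 74.0% of Tyr counts in hypoxia 2 and 3 and 80.0% and 82.4% in normoxia 2 and 3. In the libraries numbered 1 they were 0 of 595 and 0 of 267 counts, which allows shares of up to 0.504% and 1.12%. There, fragments from base 1 to base 15 or 16 took 82.5% and 72.3% of Tyr counts, against 0.768% to 1.82% in the other 4. Because the table holds nothing shorter than 15 nt, still shorter 5′ pieces would not be seen. The share of Tyr counts that start at base 1 was 72.5% to 84.0% in all 6 libraries, so they had the start of the 5′ piece in common and not its end. The most abundant internal Tyr fragment, 17 to 36, spans the anticodon and had 9.79, 32.8 and 26.8 CPM in hypoxia and 6.05, 41.9 and 36.2 CPM in normoxia.
Tyr 17 to 36: aagcattagactGTAaatct
Tyr 54 to 70: tcctctttttaccaCCA
The second of these was the most abundant Tyr fragment with the whole tail, at 23.5, 10.5 and 8.75 CPM in hypoxia and 12.1, 20.3 and 18.4 CPM in normoxia. Hypoxia was the higher in pair 1 and the lower in pairs 2 and 3, as for the whole tRNA.

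**Figure D4:**
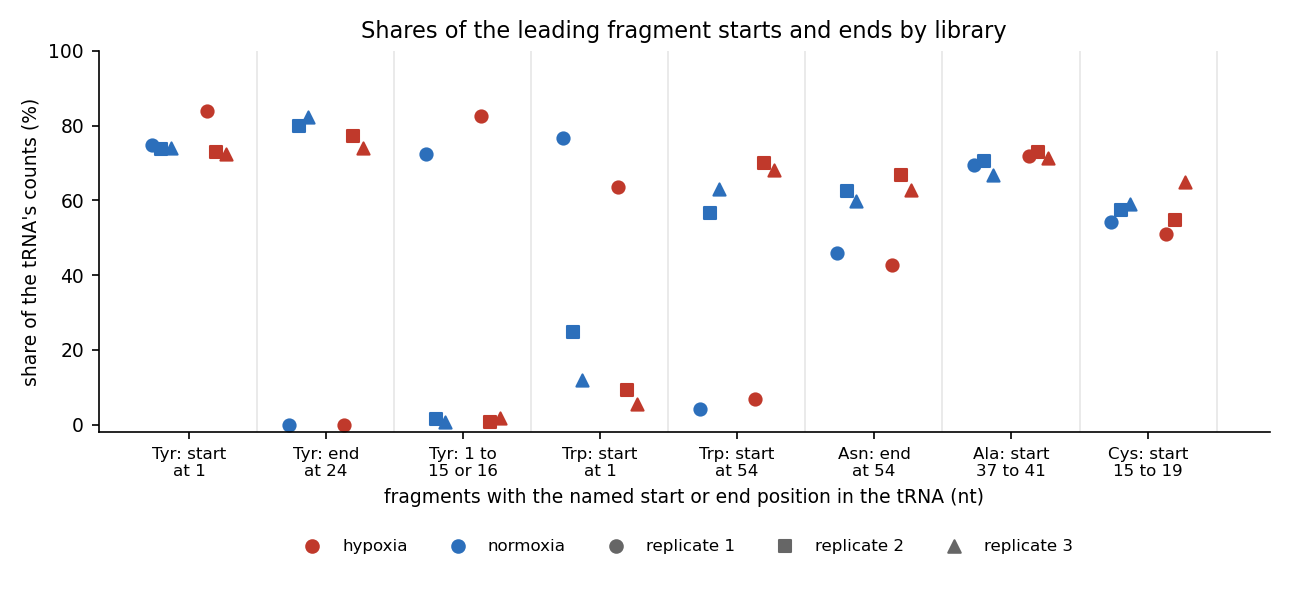
Share of a tRNA's counts (%) with the named start or end position, for each library, hypoxia in red and normoxia in blue, with a symbol for each replicate number. Tyr ends at 24 and Trp starts at 54 are at 0% to 6.93% in both libraries numbered 1 and at 56.7% to 82.4% in the others, while Ala starts at 37 to 41 stay between 66.8% and 73.0%.

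Hypoxia was compared with normoxia for the 5 tRNAs by edgeR's quasi-likelihood test over all 73 tRNA families of the table, with the group as the only term and Benjamini-Hochberg adjustment. None of the 5 passed an adjusted p of 0.05, nor did any other family (0.0% of 73 called), and at an unadjusted p under 0.05 none of the 5 and 2 of the 73 families (2.74%) were found. The log2 change of hypoxia against normoxia was -0.02 (SE 0.82) for Trp, -0.14 (0.25) for Ala, -0.05 (0.26) for Asn, -0.10 (0.24) for Cys and -0.69 (0.57) for Tyr, each with an adjusted p of 0.996. All 5 were overlapping between the groups, where 4.11% of families were not. Relative to the median family, at -0.07, Tyr stood at -0.62 and the other 4 between -0.07 and 0.05. DESeq2 and limma voom called none of the 5 either. The standard error was widest for Trp, whose level differed most between replicate numbers.

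Tyr was the only one of the 5 whose call depended on the libraries numbered 1. In the pairs of the same number, hypoxia had 1.44, 0.674 and 0.419 times the Tyr CPM of normoxia, lower in pairs 2 and 3 and higher in pair 1. With replicates 2 and 3 alone, the log2 change was -0.95 (SE 0.20), edgeR's adjusted p was 0.0434, and 8 of 73 families (11.0%) were called in that setting. Of these 8, 6 were other mitochondrial tRNAs, and the median of the 17 other mitochondrial tRNAs was -0.62 in that setting. No single Tyr tsRNA was called there (0.0154% of tsRNAs were). Of the 95 members of the 5 tRNAs tested there, 1 higher and 9 lower had an unadjusted p under 0.05 in edgeR's test. This is a share near the background, as 9.42% of all tsRNAs had such a p. With all libraries and the replicate number as a block the log2 change of Tyr was -0.48 (SE 0.28, edgeR's adjusted p = 0.314), and 4.11% of families were called. The other 4 stayed within -0.17 and -0.02 with replicates 2 and 3 alone, and their pair ratios were 0.973, 0.852 and 0.961 for Ala, 1.13, 0.964 and 0.896 for Asn, 0.958, 0.971 and 0.933 for Cys, and 1.03, 1.29 and 0.777 for Trp. Whether Tyr differs from the other 4 in its change was not tested.

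Fragment classes were tested as sums per tRNA and class, of which 12 from the 5 tRNAs had enough counts among 240 in the table. None was called (0.0% of the 240), none had an unadjusted p under 0.05 (1.67% of the 240), and their median log2 change was -0.24 against 0.01 over all sums tested. Of the 12, 9 were below 0 and 3 above, and the groups overlapped for all 12 (5.42% of the 240 did not overlap). The 3 tested Tyr classes were all below it, at -0.70 (SE 0.61) for 5′ ends, -0.99 (0.79) for CCA ends and -0.77 (0.76) for internal fragments. Without normoxia 3 they were -0.23, -0.09 and -0.37, and without normoxia 1 they were -1.12, -1.4 and -1.2. Tyr 5′ ends had 979, 703 and 582 CPM in hypoxia and 605, 1054 and 1420 CPM in normoxia. With replicates 2 and 3 alone their log2 change was -0.99 (SE 0.20, edgeR's adjusted p = 0.0546), where 2.11% of sums were called. In that setting 13 sums of the 5 tRNAs were tested and none was called, and 4 were lower at an unadjusted p under 0.05, where 27.0% of all sums had such a p in either direction. Beside Tyr 5′ ends these were Tyr internal fragments, at -0.85 (SE 0.23, adjusted p = 0.0793), Trp 5′ ends, at -1.23 (SE 0.52, adjusted p = 0.177), and Ala 5′ ends, at -4.35 (SE 1.12, adjusted p = 0.0743). The Ala sum rests on 1 and 0 counts in hypoxia 2 and 3 against 12 and 10 in normoxia 2 and 3, so its fitted size depends on the prior count. Trp 5′ ends and Trp 3′ ends went apart, at -0.35 (SE 1.77) and 0.63 (SE 1.02). Hypoxia had 0.857, 0.48 and 0.358 times the Trp 5′ ends of normoxia in the pairs 1, 2 and 3, and with the replicate block the log2 change was -0.91 (SE 0.30, unadjusted p = 0.0185, adjusted p = 0.252). In that setting 15.0% of all sums had an unadjusted p under 0.05, so this is a description of 3 pairs.

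**Figure D5:**
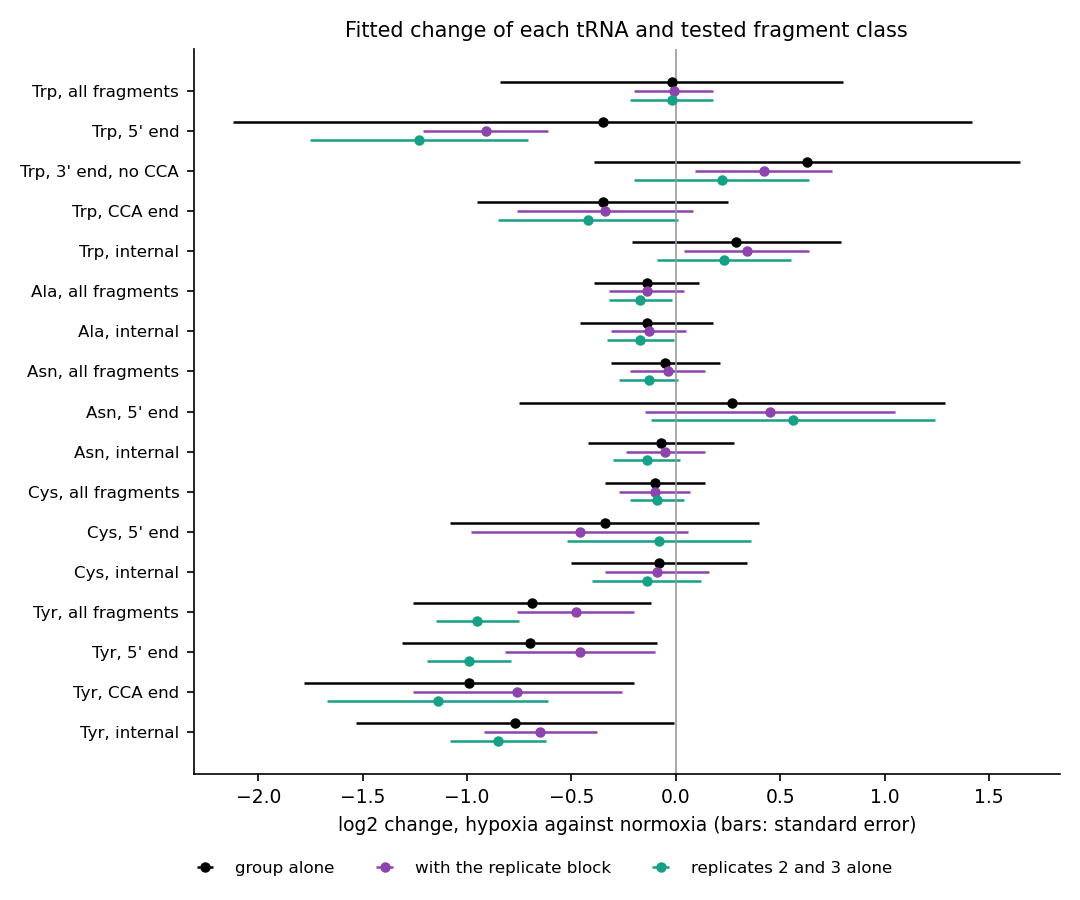
Fitted log2 change of hypoxia against normoxia with its standard error, for each tRNA and each tested class, with the group alone (black), with the replicate block (purple) and with replicates 2 and 3 alone (green). The sums over all fragments and over internal fragments of Ala, Asn and Cys lie between -0.17 and -0.04 in all 3 fits, all Tyr values lie below 0, and the Trp 5′ end has the widest bar with the group alone.

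Of the 954 sequences 93 had enough counts to be tested, and they held 80.0% of the counts, so that 861 could not be tested singly. None of the 93 was called by edgeR, as none of the 6452 tsRNAs of the table was (0.0%). At an unadjusted p under 0.05 edgeR found 0 higher and 1 lower member, DESeq2 0 and 1, and limma voom 1 and 2, and over the whole table edgeR found 0.697%. With the replicate block, 0 of the 93 were called and 0.155% of the table, and 2 higher and 6 lower members had an unadjusted p under 0.05 against 6.39% of the table. The groups did not overlap for 6 of the 93 (6.45%), 2 higher and 4 lower in hypoxia, against 4.84% of all tested tsRNAs, a share near the background. The median log2 change was -0.08 against 0.02 in the whole table. By tRNA, 12 of 17 Tyr fragments were below 0 with a median of -0.47, while the counts above and below were 7 and 7 for Trp, 15 and 16 for Ala, 14 and 8 for Asn and 4 and 5 for Cys.

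Of the fragments with the smallest unadjusted p with the group alone, 5 had mean levels of 10.6 to 12.6 CPM, and they are shown here. None passed the adjusted threshold.
Ala 40 to 58: tagatgtaggatgaagtct
Trp 47 to 67: aacacacaagtttaacttctg
Tyr 56 to 70: ctctttttaccaCCA
Tyr 8 to 24: tggctgagtaagcatta
Ala 39 to 55: atagatgtaggatgaag
Ala 40 to 58 had 19.6, 32.8 and 7.0 CPM in hypoxia and 6.05, 7.21 and 3.07 CPM in normoxia, higher in every pair, with a log2 change of 1.82 (SE 0.86, edgeR's adjusted p = 1.0). Trp 47 to 67 had 23.5, 11.3 and 15.8 CPM in hypoxia and 9.07, 0.451 and 5.52 CPM in normoxia, so the groups did not overlap, on 12, 29 and 27 counts against 3, 1 and 9. Tyr 56 to 70 had 3.92, 2.73 and 1.75 CPM in hypoxia and 6.05, 6.76 and 46.6 CPM in normoxia. It was the member with the smallest p with the group alone (log2 change -3.06, SE 1.12, unadjusted p = 0.0263), and normoxia library 3 held 76 of its counts, against 2 and 15 in normoxia 1 and 2. Tyr 8 to 24 shares its end with the main 5′ fragment and had 6.24 and 2.33 CPM in hypoxia 2 and 3, 38.3 and 27.0 CPM in normoxia 2 and 3 and none in the libraries numbered 1. Ala 39 to 55, whose end is the unsteady position described above, had 13.7, 1.17 and 0.583 CPM in hypoxia and 30.2, 7.66 and 10.4 CPM in normoxia. Cys 19 to 36 was also among the 3 higher ones, with a log2 change of 0.79 (SE 0.67, adjusted p = 1.0), and in the fit with the block the 3 lower ones were Tyr 8 to 24, Trp 1 to 18 and Tyr 1 to 24.

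The added tail was read among fragments that stop at the last encoded base or within the tail. For Trp, 5.46%, 14.0% and 10.9% of them carried the whole CCA in hypoxia and 9.46%, 23.4% and 16.6% in normoxia, lower in hypoxia in each pair (10.1% ± 4.31 against 16.5% ± 6.98, SD, n = 3; exact permutation test, two-sided p = 0.3, adjusted over both tRNAs p = 0.4). For Tyr the shares were 94.7%, 59.1% and 47.1% in hypoxia and 85.7%, 81.8% and 80.7% in normoxia (67.0% ± 24.8 against 82.7% ± 2.64, exact permutation p = 0.4, adjusted 0.4). The 3 against 3 design cannot give a p below 0.1, and a comparison without 1 library, 2 against 3, cannot either. The Tyr difference of -15.7 percentage points was -29.6 without hypoxia 1 (exact permutation p = 0.1) and -5.79 without hypoxia 3. That of Trp, -6.38, was -9.89 without normoxia 1 (exact permutation p = 0.1) and -2.91 without normoxia 2. With replicates 2 and 3 alone the differences were -28.1 percentage points for Tyr and -7.57 for Trp. The whole tail was the rarer form at the Trp end and the main form at the Tyr end in 5 of the 6 libraries, hypoxia 3 being the exception. These shares hold only for listed lengths. The shortest listed sequence has 15 nt, so Tyr 56 to 70 could be listed only with its whole tail. It gave 76 of the 167 whole-tail Tyr counts in normoxia 3. Trp fragments from base 54 without any tail base could not be listed either. The shares were not corrected for this. Only 19 and 14 Tyr counts that stop at the last encoded base or within the tail were present in the libraries numbered 1. The other 3 tRNAs had too few 3′ ends for a share. Ends at the last encoded base or within the tail numbered 12 in hypoxia and 23 in normoxia for Ala, 4 and 59 for Asn, and 27 and 18 for Cys. Normoxia 2 held 44 of the 59 Asn counts. Whole-tail ends among them numbered 9 in hypoxia and 10 in normoxia for Ala, 0 and 16 for Asn, and 0 and 14 for Cys.

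As a share of all mitochondrial tRNA counts the 5 tRNAs together held 4.33%, 4.93% and 4.54% in hypoxia and 4.24%, 5.27% and 5.54% in normoxia (4.6% ± 0.302 against 5.02% ± 0.686, SD, n = 3; exact permutation test, two-sided p = 0.4). The difference was -0.42 percentage points, and -0.674 with replicates 2 and 3 alone. It turned its direction, to 8.97% ± 1.77 against 7.67% ± 1.75 (exact permutation p = 0.5), when tRNA-Val was left out of the total. Their median log2 change of -0.10 stood beside -0.29 for the other 17 mitochondrial tRNAs, of which 0 were called with the group alone, 2 were called lower with the replicate block (4.11% of all families were called) and 6 were called lower with replicates 2 and 3 alone (11.0%). The nuclear tRNA families of the same amino acids, 7 in number, had a median of -0.14 with 0 called. A sequence named for several families was counted in each of them, so nuclear family sums can share sequences. The 7 include the alanine families AGC, CGC and TGC, with close values of -0.31, -0.33 and -0.32, so the 7 are not separate measurements. Of the 4 other mitochondrial tRNAs on the strand of Ala, Asn, Cys and Tyr, none was called with the group alone. Among these 4, tRNA-Gln had the values most like those of Tyr, with 3254, 5086 and 4592 CPM in hypoxia and 2929, 7707 and 11036 CPM in normoxia and pair ratios of 1.11, 0.66 and 0.416. With replicates 2 and 3 alone its log2 change was -0.98 (SE 0.19, edgeR's adjusted p = 0.0418). It was singled out after its values were seen, and the 2 tRNAs were measured in the same libraries.

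Across the 6 libraries, the tRNA families whose scaled log2 level was most like that of the 5 tRNAs summed were mitochondrial tRNA-Ser-GCT (Pearson's r = 0.857), the suppressor family tRNA-Sup-TTA (0.777) and mitochondrial tRNA-Asp-GTC (0.757), out of 68 families. These are descriptions over 6 libraries that share their depth and the offset of the libraries numbered 1, and tRNA-Sup-TTA had only 1 to 27 counts per library. Before scaling, the 5 summed had 6607, 2955 and 2742 CPM in hypoxia and 6092, 3495 and 4061 CPM in normoxia. The correlations were taken on the scaled levels, and these unscaled values do not show them.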

How the data were processed

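The deposited table holds raw counts of distinct sequences per library, not normalized, with the tRNA and class of each. The submitters' processing notes name the build mm10. How reads were aligned, annotated and filtered is not given in the sources used here. Members of the 5 tRNAs were placed by exact matching to GENCODE M21 sequences on GRCm38, the assembly of mm10, with CCA added. The 6 libraries held 330787 to 2563749 counts. Tests were run in R 4.3.3 with edgeR 4.0.16 (its quasi-likelihood test, TMM scaling, filterByExpr, Benjamini-Hochberg over the whole table at 0.05), fitted on tsRNAs, on sums per tRNA and on sums per tRNA and class. The code was tried on simulated counts with a fixed spread and without the offset of the libraries numbered 1. Those runs cannot show how the tests behave on data with that offset. The standard error is the log2 change divided by the square root of F. DESeq2 1.42.0 and limma 3.58.1 were alternatives, beside other scalings, no filter, the replicate block, replicates 2 and 3 alone and each library left out. Shares were compared by exact permutation of the 6 libraries.

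The members and lists were chosen with earlier results of these data known. Named tsRNAs were, for each tRNA, the most abundant of each class with at least 1% of its counts, members past the threshold, and, at a mean of at least 10 CPM, those of smallest unadjusted p, 3 in each direction, with and without the block. Deviations from the group means correlated between same-numbered libraries at 0.81, 0.533 and 0.451 for replicates 1, 2 and 3. Deviations within a group cancel out, and the libraries numbered 1 stood apart in both groups. The values for replicates 2 and 3 can therefore carry that offset and cannot show that these numbers pair. Libraries of unlike number were not correlated. Pairing by number was a choice, and the pair ratios and the replicate block rest on it. The labels state no shared origin.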

Additional observations from a re-analysis of the deposited data

How the results depend on the processing

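With the replicate block the 5 tRNAs had log2 changes of -0.01 for Trp, -0.14 for Ala, -0.04 for Asn, -0.10 for Cys and -0.48 for Tyr, and the block changed no call of a tRNA, a class or a tsRNA. The only call that changed was that of Tyr with replicates 2 and 3 alone (-0.95). DESeq2 size factors move the median family by 0.18, and with them, as in DESeq2 itself, the log2 change was 0.18 for Trp, 0.03 for Ala, 0.12 for Asn, 0.08 for Cys and -0.52 for Tyr. Tyr was -0.39 with library size scaling and -0.36 with limma voom. Library size scaling gave 0.04 for Trp, 0.07 for Asn, 0.07 for internal Asn fragments and 0.02 for internal Cys fragments. Sequences of 1 family only gave 0.03 and 0.02 for these last sums, and no filter gave 0.0 for internal Cys. None of these changes was called.

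With each library left out in turn, Tyr 5′ ends ranged from -1.12 to -0.23, Tyr CCA ends from -1.4 to -0.09 and internal Tyr from -1.2 to -0.37. The log2 change of whole tRNAs ranged from -1.0 to 0.98 for Trp, -0.22 to -0.07 for Ala, -0.18 to 0.02 for Asn, -0.2 to 0.02 for Cys and -1.1 (without normoxia 1) to -0.26 (without normoxia 3) for Tyr, and no tRNA was called. Among classes and tsRNAs that changed sign, it ranged from -3.8 to 2.22 for Trp 5′ ends, -0.75 to 1.6 for Trp 3′ ends, -0.61 to 1.42 for Asn 5′ ends, -0.25 to 0.07 for internal Asn, -0.67 to 0.11 for Cys 5′ ends, -0.25 to 0.05 for internal Cys, -6.3 to 3.48 for Trp 1 to 18, -1.8 to 2.63 for Trp 45 to 67 and -0.85 to 0.08 for Tyr 17 to 36. The ends of the Trp ranges came without hypoxia 1 (lowest) and without normoxia 1 (highest) for the whole tRNA and for its 5′ ends.

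The difference in the share of mitochondrial counts was 1.3 percentage points without tRNA-Val, against -0.42 with it. Among fragments of at least 18 nt, 1 Tyr sequence alone reaches the 3′ end and carries the whole tail, so the difference is 0.0 by construction. Depth limits the libraries numbered 1 most, and 861 of 954 sequences were too sparse to test.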
